A study of Mus musculus with 48 samples.

Results

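Matrix metalloproteinases are zinc-dependent enzymes that cut collagens, gelatin, elastin and other parts of the extracellular matrix, and the tissue inhibitors of metalloproteinases (TIMPs) bind them and block their activity. In brain tumors the family is known for opening the matrix to invading cells and for its part in vessel growth, with proteases supplied by tumor cells and by myeloid cells. The genes described are the proteinases Mmp2, Mmp8, Mmp9, Mmp12, Mmp13, Mmp14 and Mmp19 and the inhibitors Timp1, Timp2 and Timp3. These 10 genes were rows of both tables, among 20300 genes in the table of whole-tumor cells and 14363 in the table of CD11b+ cells.

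The cells came from GL261 tumors, a mouse glioma line implanted in the brains of C57BL/6 mice, and the study asked how loss of P-selectin in the tumor cells changes the tumor and its myeloid cells. The labels give 2 genotypes of the implanted line, Negative control (shNC) and P-Selectin knockdown (shSELP), each made with a hairpin vector, while the host mice carried no hairpin. By the methods the hosts were 6-week-old males at implantation and 3 brains were pooled per group. The whole-tumor experiment (mix) has 2 libraries per group and the CD11b+ experiment has 1 library per group.

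The labels put collection at day 16 after implantation for the mix and at day 21 for the CD11b+ cells, whereas the methods give a different, single day. The reagent kit is version 2 in the labels and version 3 in the methods. The mix joined equal amounts of CD11b+ cells, remaining CD45+ cells and the remaining suspension, and cell-type shares follow from that. Each of the 6 libraries has 8 sequencing entries (48 in all). In 7 of the 8 entries of the CD11b+ shSELP library the description opens with the negative control, and the direction of CD11b+ differences depends on the remaining labels being right. The study states fewer selected cells per mix group than the files hold, and more per CD11b+ group. The labels do not say whether the 2 libraries of a mix group come from separate pools of brains. A test between groups therefore measures the spread between libraries, which may be technical, and an exact permutation test of 2 against 2 libraries cannot reach a p under 0.333.

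The mix table held 2289, 2297, 2293 and 2293 cells, with 22945972, 22626413, 17398121 and 25589350 unique molecular identifiers (UMIs) in the order shNC 1, shNC 2, shSELP 1 and shSELP 2. Values are given in that order throughout. The CD11b+ table held 2862 cells per library, with 12628177 UMIs in shNC and 11445676 in shSELP. After cells with under 500 genes or over 10% mitochondrial UMIs were left out, median depth was 9547, 8051, 6164 and 9879.5 UMIs per cell in the mix and 4209 and 3737 in the CD11b+ libraries. Cell barcodes shared between mix libraries numbered 5 (2 between shNC 2 and shSELP 2, 3 between the shSELP libraries), and 3 were shared between the CD11b+ libraries.

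Library shSELP 1 stood apart from the other 3 mix libraries. It was the shallowest and held 348 endothelial cells, against 21, 30 and 73 in the others, 78 mural cells against 4, 10 and 26, and 312 microglia against 93, 123 and 145.

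Selp, the targeted gene, could not check the group labels. Tumor cells held 1, 0, 0 and 0 Selp UMIs, and the floor of 3 UMIs equals 0.742, 1.17, 5.23 and 6.27 CPM there. Endothelial cells, which carry P-selectin as an adhesion molecule for leukocytes, had 60.5 and 62.9 CPM in shNC and 9.13 and 15.001 CPM in shSELP (8, 12, 15 and 7 UMIs). The knockdown itself was thus not measurable at this depth, and the groups rest on the labels.

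Cells were assigned to classes by gates on fixed marker lists that hold none of the 10 genes, and names such as macrophage stand for these gates. Of 8726 kept mix cells, 7132 passed a gate and 1594 (18.3%) did not. Macrophages numbered 777, 756, 502 and 826, microglia 93, 123, 312 and 145, tumor cells 263, 160, 40 and 51, T cells 451, 455, 410 and 464 and neutrophils 7, 11, 25 and 18. Fibroblasts were rare, with 10, 0, 24 and 2 cells. Levels are CPM, the UMIs of a gene scaled to the UMIs summed over the cells of a class in a library. Intervals and floors cover counting error only.

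T cells served as a class expected to hold little of these transcripts, and their level is given as a background, of which the part of free RNA was not tested. Median depth of T cells was 5713, 5691, 4892 and 7569.5 UMIs and that of macrophages 10424, 9930, 10116 and 15888. Mmp2, Mmp8, Mmp9, Mmp12, Mmp13 and Mmp19 lay between 0 and 4.13 CPM in T cells of all libraries. Mmp14 and Timp1 reached at most 8.48 and 27.0 CPM there, and Timp3 6.05 CPM. Timp2 stood higher, at 59.0, 54.8, 80.6 and 82.2 CPM.

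With the UMIs of all mix libraries pooled, macrophages were the main source of 5 of the 10 genes among the gated cells, all of them proteinases, and the other 5 came mainly from other classes. Macrophages held 61.4% of the 6689 Mmp12 UMIs, 73.4% of 3035 Mmp13 UMIs, 75.9% of 10567 Mmp14 UMIs and 81.1% of 1371 Mmp19 UMIs. Neutrophils held 75.6% of the 193 Mmp9 UMIs although they were 61 of 8726 cells, and Mmp8 lay in macrophages (67.6% of 469) and neutrophils (26.2%). Mmp2 came mainly from tumor cells (41.6% of 1849). The main sources of the inhibitors were tumor cells for Timp1 (37.7% of 5249), microglia for Timp2 (45.2% of 19863) and endothelial cells for Timp3 (50.3% of 6571). These ranks are of summed UMIs, so they depend on class size as well as on level. Only those of Mmp9, Mmp12, Mmp13, Mmp14 and Mmp19 held in every library.

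For the other 5 genes the first source changed between libraries. Of the 3303 endothelial Timp3 UMIs, 2365 were in shSELP 1, and tumor cells held more in both shNC libraries, 732 and 563 UMIs against 213 and 261, and without shSELP 1. Timp1 came first from fibroblasts in shNC 1 (888 UMIs against 792 in tumor cells) and from macrophages in shSELP 2 (274 against 198). Timp2 came first from macrophages in shNC 1 (1322 against 1152 in microglia), Mmp2 from macrophages in shSELP 2 (175 against 99 in tumor cells) and Mmp8 from neutrophils in shSELP 1 (108 against 39 in macrophages).

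**Figure D1:**
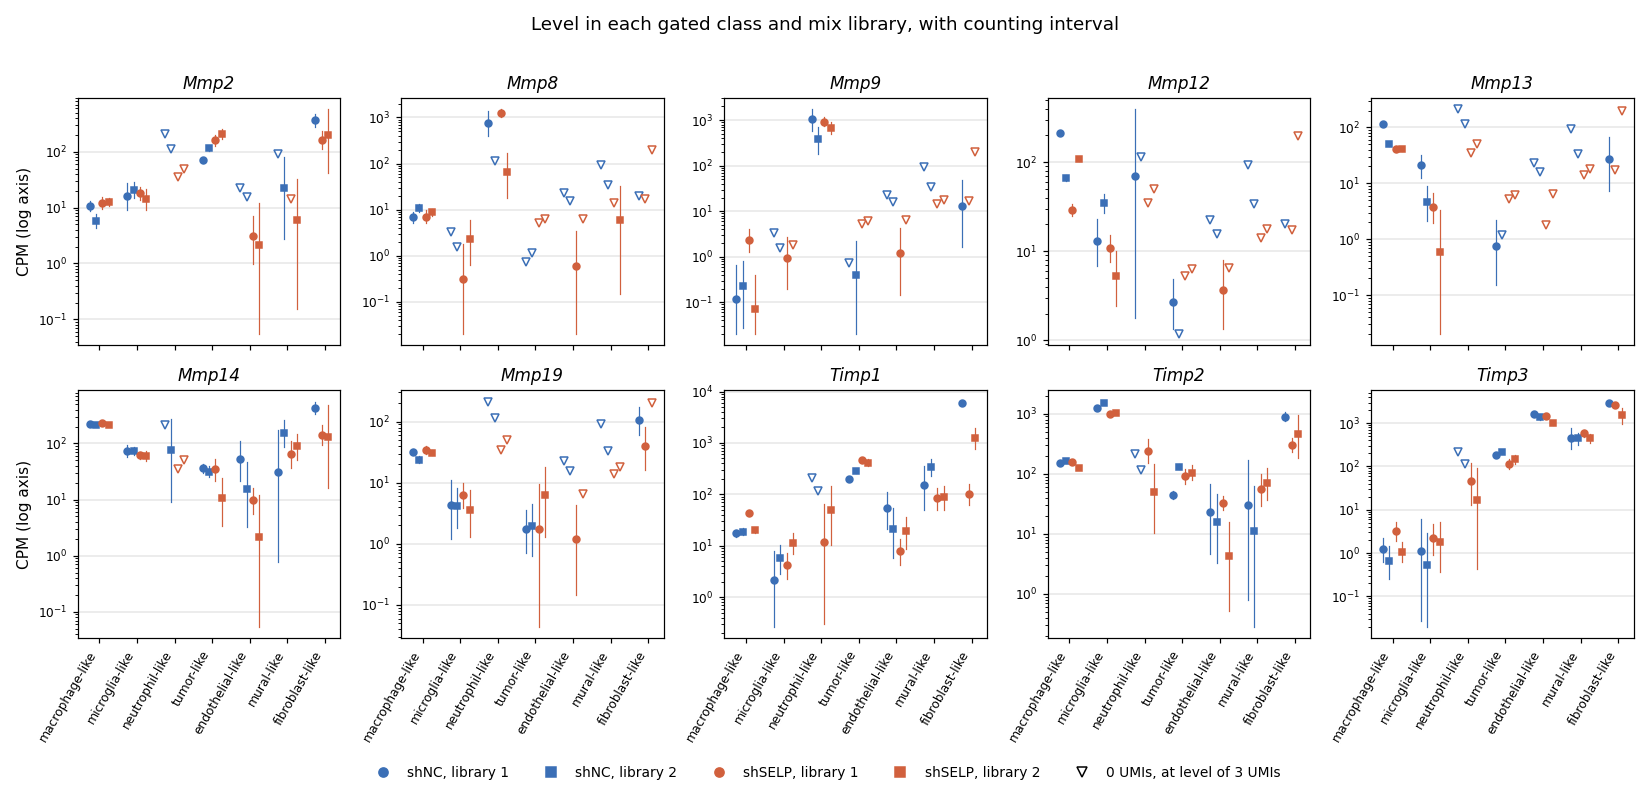
Level of each of the 10 genes (CPM, log axis) by cell class, with 1 point per mix library, bars for the 95% counting interval and open triangles at the level of 3 UMIs where a library had 0. Mmp9 stands highest in neutrophils, Mmp12 and Mmp13 in macrophages, Timp2 in microglia and Timp3 in fibroblasts and endothelial cells.

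Tumor cells and macrophages of the same libraries differed in all 9 members tested. Mmp2, Timp1 and Timp3 were higher in tumor cells, 3 of 9 members tested, where 32.8% of 10903 genes were higher. The other 6 were lower in tumor cells, where 36.8% of all genes were lower. The median log2 fold change of all 9 members tested was −3.65, also with Mmp8 at its bound, against −0.06 over all genes. Mmp9 had 1 UMI in tumor cells and 17 in macrophages and was not tested. The fits were edgeR quasi-likelihood fits on UMIs summed per library and class, with library as a block.

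Microglia, the resident myeloid cells of the brain, differed from macrophages in 8 of 8 members tested. Mmp2 and Timp2 were higher in microglia, where 23% of 9830 genes were higher, and 6 members were lower, against 22.3% of all genes. The median log2 fold change of the members was −2.36 and that of all genes 0.02. Mmp9 and Timp3 were too sparse to test in this contrast.

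Between neutrophils and macrophages the fit called 6 of 9 members tested. Mmp8 and Mmp9 were higher, against 3.32% of 8416 genes, and Mmp12, Mmp13, Mmp14 and Mmp19 were lower, against 10.9% of all genes. The calls of Mmp13 and Mmp19 rest on 0 neutrophil UMIs, and that of Mmp19 was lost on leaving out any library. The members' median was −4.25, or −0.91 with Mmp2, Mmp13 and Mmp19, which had 0 UMIs in neutrophils, at their bounds, and the median of all genes was −0.79. Of all genes, 1197 passed in neutrophil-like against macrophage-like cells, 655 without shSELP 1 and 516 without shSELP 2, the libraries with most neutrophils, and members called numbered 6, 6 and 4.

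Mmp2, a gelatinase known for activation at the cell surface by the Mmp14 protein, was a tumor and fibroblast transcript. Tumor cells had 70.2 and 115 CPM in shNC and 160.3 and 207 CPM in shSELP (284, 295, 92 and 99 UMIs). Every library exceeded the microglia of all libraries, which had 16.4 and 20.9 CPM in shNC and 18.1 and 14.2 CPM in shSELP. Macrophages stood lower again, at 10.7 and 5.82 CPM in shNC and 12.2 and 12.7 CPM in shSELP. Fibroblasts had 367 CPM in shNC 1, 165 in shSELP 1 and 198 in shSELP 2 (55, 29 and 3 UMIs), within reach of the tumor cells, and shNC 2 had no fibroblast. Mural cells held 3 Mmp2 UMIs, endothelial cells 6 and neutrophils 0 of 186931 UMIs.

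Over the classes Mmp2 thus ran from fibroblasts and tumor cells, whose library ranges overlapped, to microglia and then macrophages, and macrophages overlapped with the mural cells below them. Tumor cells exceeded macrophages (log2 fold change 2.88, SE 0.22, adjusted p = 4.29e-08, higher in 4 of 4 libraries). Microglia also exceeded macrophages (log2 fold change 0.66, SE 0.25, adjusted p = 0.0434, higher in 4 of 4 libraries), a call that was lost without shNC 1 at 0.68 (adjusted p = 0.0588), without shNC 2 at 0.27 (adjusted p = 0.291), without shSELP 1 at 0.78 (adjusted p = 0.0573) without the library block at 0.64 (adjusted p = 0.0651) and in DESeq2 at 0.67 (adjusted p = 0.107). The neutrophil floor of 3 UMIs, 16.0 CPM, lay above the macrophage level, so no fold is given (edgeR adjusted p = 0.196).

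Among tumor cells, 52.9, 59.4, 62.5 and 66.7% had at least 1 Mmp2 UMI, against 0.443, 1.98, 0.976 and 3.66% of T cells. Median depth of the tumor cells was 16352, 16872, 13162 and 6540 UMIs, above that of the T cells in the first 3 libraries. After each cell was thinned to 2000 UMIs the shares were 10.7, 16.6, 18.4 and 26.2% in tumor cells and 0.239, 0.685, 0 and 0.435% in T cells.

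Mmp9, the other gelatinase and a content of neutrophil tertiary granules, was a neutrophil transcript. Neutrophils had 1059 and 379.5 CPM in shNC and 928 and 681 CPM in shSELP (15, 10, 80 and 41 UMIs). All 4 libraries carried it, in 3 of 7, 5 of 11, 19 of 25 and 12 of 18 cells. Macrophages had 0.116 and 0.224 CPM in shNC and 2.37 and 0.0725 CPM in shSELP (1, 2, 13 and 1 UMIs), and the 13 UMIs of shSELP 1 lay in 4 cells of the Nos2/Inhba state. Macrophages thus stood below the T-cell range of 0.565 to 1.38 CPM in the other 3 libraries.

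Neutrophils exceeded macrophages in Mmp9 (log2 fold change 10.18, SE 0.58, adjusted p = 5.98e-66, higher in 4 of 4 libraries). The pooled ratio of CPM was 1692, with an exact interval of 1021 to 2984. Without shSELP 1 the log2 fold change was 11.52, and with cells thinned it was 8.80, and DESeq2 gave 10.84. The order below neutrophils could not be resolved, since fibroblasts (2 UMIs), T cells, macrophages, endothelial cells (2 UMIs), microglia (3 UMIs) and tumor cells (1 UMI) overlapped and mural cells had 0.

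Mmp8, the collagenase of neutrophils, was high in some neutrophils and low but present in macrophages. Neutrophils had 777 and 0 CPM in shNC and 1253 and 66.4 CPM in shSELP (11, 0, 108 and 4 UMIs). Library shSELP 1 held 108 of the 123 UMIs, while shNC 2 had none, so the libraries did not agree. In macrophages the level was even, at 6.84 and 11.1 CPM in shNC and 7.11 and 8.71 CPM in shSELP (59, 99, 39 and 120 UMIs). Tumor cells and fibroblasts had 0 UMIs, and microglia had 5.

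Neutrophils exceeded macrophages in Mmp8 (log2 fold change 4.91, SE 0.55, adjusted p = 1.18e-16, higher in 3 of 4 libraries), with a log2 fold change of 5.66 without shNC 2, 3.66 without shSELP 1 and 5.86 without the library block. Their ranges over libraries nevertheless overlapped, because of the 0 in shNC 2. Microglia lay below macrophages (log2 fold change −3.75, SE 0.52, adjusted p = 5.57e-05, lower in 4 of 4 libraries), at −5.55 without shSELP 2, which held 4 of the 5 microglial UMIs. In tumor cells a count of 0 in 7652265 UMIs put Mmp8 at least 17.7-fold lower than in macrophages by the exact interval (edgeR adjusted p = 1.56e-06, lower in 4 of 4 libraries). Below macrophages, mural cells, microglia, endothelial cells, T cells, tumor cells and fibroblasts overlapped.

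Mmp13, a collagenase of fibrillar collagen, was a macrophage transcript. Macrophages had 114 and 50.7 CPM in shNC and 41.6 and 41.1 CPM in shSELP (980, 453, 228 and 566 UMIs). Library shNC 1 was the highest by over 60 CPM, and the shSELP libraries were lower than the shNC libraries. Microglia had 20.8 and 4.71 CPM in shNC and 3.82 and 0.592 CPM in shSELP (19, 9, 12 and 1 UMIs). Macrophages stood above microglia and T cells in every library. They also stood above fibroblasts in shNC 1, which held all 4 fibroblast UMIs, and in shSELP 1. Library shNC 2 had no fibroblast, and the 2 fibroblasts of shSELP 2 cannot show a level. Fibroblasts, microglia and T cells overlapped. Endothelial cells, mural cells and neutrophils held 0 Mmp13 UMIs.

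Microglia lay below macrophages in Mmp13 (log2 fold change −3.41, SE 0.25, adjusted p = 1.43e-07, lower in 4 of 4 libraries). Tumor cells held 3 UMIs, all in shNC 1, and lay 154-fold lower by pooled CPM, with an exact interval of 52.7 to 748 (edgeR adjusted p = 8.75e-11, lower in 4 of 4 libraries). Without shNC 1 the fitted log2 fold change moved from −8.38 to −11.06, a value set by counts of 0, and in thinned cells it was −5.98. Neutrophils held 0 UMIs, where the macrophage level of each library would give 1.61, 1.34, 3.58 and 2.47 UMIs, and the exact interval of the pooled ratio leaves them at least 3.06-fold lower. The edgeR call (adjusted p = 0.00157) stood in DESeq2 at −3.70 (adjusted p = 0.0112) and was lost without the library block (adjusted p = 0.0534) and in thinned cells (adjusted p = 0.168).

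Few macrophages carried most of the Mmp13. A UMI was seen in 19.2, 11.8, 10.96 and 13.4% of macrophages, against 1.11, 0.220, 0 and 0.216% of T cells, and in thinned cells in 8.83, 4.28, 3.84 and 4.17% against 0.477, 0, 0 and 0.217%. The 5% of macrophages with most Mmp13 held 73.4, 83.7, 82.9 and 80.4% of its macrophage UMIs, a split chosen after the levels were seen.

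Mmp12, the macrophage elastase, varied widely between libraries. Macrophages had 213 and 66.8 CPM in shNC and 29.2 and 109.5 CPM in shSELP (1842, 597, 160 and 1510 UMIs). The highest library, shNC 1, and the lowest, shSELP 1, bracketed the other 2, so the groups overlapped. Microglia had 13.2 and 34.6 CPM in shNC and 10.8 and 5.33 CPM in shSELP (12, 66, 34 and 9 UMIs), and 39 of the 66 UMIs in shNC 2 came from 1 cell. T cells had 1.47 and 3.96 CPM in shNC and 0.403 and 0.459 CPM in shSELP.

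Microglia lay below macrophages in Mmp12 (log2 fold change −2.42, SE 0.38, adjusted p = 0.000173, lower in 4 of 4 libraries), at −3.22 without shNC 2. Their ranges over libraries touched, since microglia of shNC 2 exceeded macrophages of shSELP 1. Tumor cells also lay below macrophages (log2 fold change −7.47, SE 0.34, adjusted p = 1.39e-10, lower in 4 of 4 libraries). All 11 tumor-cell UMIs were in shNC 1, and without it the log2 fold change was −11.55, while in thinned cells it was −5.64. Neutrophils held 1 UMI, 20.9-fold lower by pooled CPM with an exact interval of 3.74 to 824 (edgeR adjusted p = 0.000619).

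That neutrophil difference in Mmp12 was lost without shSELP 2 at −3.53 (adjusted p = 0.0590), without the library block (adjusted p = 0.0954) and in thinned cells (adjusted p = 0.238), and without shNC 1, which held the 1 UMI, the fitted value was −11.27, and in DESeq2 −3.54. Below microglia, T cells, endothelial cells (6 UMIs) and tumor cells overlapped, and mural cells and fibroblasts held 0 UMIs.

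A Mmp12 UMI was seen in 15.8, 12.8, 6.18 and 16.5% of macrophages and 1.11, 0.659, 0.244 and 0.431% of T cells. In cells thinned to 2000 UMIs the shares were 8.96, 5.49, 2.63 and 6.50% and 0.477, 0.457, 0 and 0%. The top 5% of macrophages held 90.2, 83.2, 96.9 and 83.9% of the macrophage UMIs of Mmp12, so its level in a library was set by few cells.

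Mmp14, the membrane-type metalloproteinase that cuts collagen at the cell surface, was even over the libraries in macrophages. They had 219 and 211 CPM in shNC and 234 and 215 CPM in shSELP (219.7 ± 9.97 CPM, mean and SD of 4 libraries). No library stood apart. Microglia had 74.6 and 72.8 CPM in shNC and 61.4 and 60.4 CPM in shSELP, and tumor cells 35.9 and 31.3 CPM in shNC and 34.9 and 10.5 CPM in shSELP, the last from 5 UMIs. In mural cells the level was 30.7 and 156 CPM in shNC and 65.8 and 89.1 CPM in shSELP (1, 14, 14 and 15 UMIs), a range that included the microglia. Fibroblasts had 434 CPM in shNC 1, 143 in shSELP 1 and 132 in shSELP 2 (65, 25 and 2 UMIs).

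Fibroblasts and macrophages overlapped at the top of the order, mural cells and microglia overlapped below them, and tumor cells, endothelial cells, neutrophils and T cells followed with overlapping ranges. Microglia lay below macrophages (log2 fold change −1.84, SE 0.12, adjusted p = 3.43e-08, lower in 4 of 4 libraries), and so did tumor cells (log2 fold change −3.65, SE 0.22, adjusted p = 3.29e-09, lower in 4 of 4 libraries). Neutrophils held 2 UMIs, both in shNC 2, 20.4-fold lower by pooled CPM with an exact interval of 5.63 to 168 (edgeR adjusted p = 1.07e-07, lower in 4 of 4 libraries). The fitted value for neutrophils was −4.63, with −13.04 without shNC 2, −3.90 without shSELP 1 and −10.28 in thinned cells.

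Most macrophages carried Mmp14. A UMI was seen in 75.0, 73.0, 77.7 and 85.1% of them and in 3.33, 3.74, 2.93 and 2.80% of T cells. Thinned to 2000 UMIs, the shares were 30.8, 28.0, 36.2 and 33.7% and 1.67, 1.14, 0.759 and 0.652%.

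Mmp19, a proteinase of basement membrane components, followed macrophages and fibroblasts. Macrophages had 32.1 and 24.0 CPM in shNC and 34.8 and 31.2 CPM in shSELP (30.5 ± 4.64 CPM). Microglia had 4.39 and 4.19 CPM in shNC and 6.37 and 3.55 CPM in shSELP, and tumor cells 1.73 and 1.96 CPM in shNC and 1.74 and 6.27 CPM in shSELP (7, 5, 1 and 3 UMIs). Fibroblasts had 107 CPM in shNC 1 and 39.9 CPM in shSELP 1 (16 and 7 UMIs), and 0 UMIs in shSELP 2, whose 2 fibroblasts cannot show a level. Microglia and tumor cells overlapped, and both lay above T cells, while mural cells held 0 UMIs. Endothelial cells held 2 Mmp19 UMIs. With 132124 and 190881 UMIs of all genes in shNC, their depth there was too low to place them below microglia or tumor cells.

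Both microglia (log2 fold change −2.79, SE 0.19, adjusted p = 5.14e-08, lower in 4 of 4 libraries) and tumor cells (log2 fold change −4.51, SE 0.28, adjusted p = 4.16e-09, lower in 4 of 4 libraries) lay below macrophages in Mmp19, microglia at −3.44 without likely doublets. Neutrophils held 0 UMIs, where the macrophage level of each library would give 0.455, 0.631, 3.001 and 1.88 UMIs, so these counts say little of a difference, and the exact interval of the pooled ratio allows a fold as small as 1.53. The edgeR call (adjusted p = 0.0193) was lost on leaving out any library, with adjusted p = 0.0623 without shNC 1, 0.0664 without shNC 2, 0.197 without shSELP 1 and 0.151 without shSELP 2, in DESeq2 (0.0816) and in thinned cells (0.166).

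Timp1, an inducible inhibitor of most metalloproteinases, was highest in stromal and tumor cells. Tumor cells had 196 and 284 CPM in shNC and 458 and 414 CPM in shSELP (792, 725, 263 and 198 UMIs). Mural cells had 154 and 335 CPM in shNC and 84.6 and 89.1 CPM in shSELP (5, 30, 18 and 15 UMIs), which overlapped with the tumor cells. Fibroblasts had 5933 CPM in shNC 1, 103 in shSELP 1 and 1255 in shSELP 2 (888, 18 and 19 UMIs), and together held 17.6% of the Timp1 UMIs of the mix. Macrophages had 17.4 and 18.7 CPM in shNC and 43.4 and 19.9 CPM in shSELP (150, 167, 238 and 274 UMIs).

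The macrophage value of shSELP 1 stood apart, and 82 of its 238 UMIs (34.5%) came from 1 cell. Endothelial cells had 53.0 and 21.0 CPM in shNC and 7.91 and 19.3 CPM in shSELP (7, 4, 13 and 9 UMIs), microglia 2.19 and 5.76 CPM in shNC and 4.14 and 11.3 CPM in shSELP. Endothelial cells, macrophages, neutrophils, T cells and microglia overlapped in that order. Tumor cells exceeded macrophages (log2 fold change 3.01, SE 0.17, adjusted p = 1.88e-09, higher in 4 of 4 libraries). Microglia lay below macrophages (log2 fold change −2.30, SE 0.33, adjusted p = 7.02e-05, lower in 4 of 4 libraries), at −1.54 without shSELP 1, −2.91 without shSELP 2 and −3.01 in thinned cells. Neutrophils, with 4 UMIs, were not told from macrophages (log2 fold change −0.69, SE 0.87, adjusted p = 0.635, lower in 3 of 4 libraries).

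Timp2, the inhibitor that also takes part in the activation of Mmp2 at the cell surface, marked microglia. They had 1263 and 1530.0 CPM in shNC and 1007 and 1036 CPM in shSELP (1209 ± 243 CPM), and each library exceeded every other class. Fibroblasts followed with 889 CPM in shNC 1, 302 in shSELP 1 and 462 in shSELP 2 (133, 53 and 7 UMIs). Macrophages had 153 and 161 CPM in shNC and 158 and 126 CPM in shSELP, and tumor cells 44.5 and 131 CPM in shNC and 90.6 and 105 CPM in shSELP, a range that reached that of the macrophages. Neutrophils (24 UMIs), T cells, mural cells and endothelial cells overlapped at the lower end.

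Microglia exceeded macrophages in Timp2 (log2 fold change 2.89, SE 0.12, adjusted p = 1.02e-09, higher in 4 of 4 libraries), and tumor cells lay below macrophages (log2 fold change −1.59, SE 0.22, adjusted p = 2e-05, lower in 4 of 4 libraries). The neutrophil contrast was not called (log2 fold change −1.05, SE 0.51, adjusted p = 0.161, lower in 3 of 4 libraries), and it was called without shSELP 1, which held 21 of the 24 neutrophil UMIs, at −2.81 (adjusted p = 0.0126). A UMI was seen in 94.6, 96.7, 92.6 and 91.0% of microglia and 24.4, 25.1, 25.4 and 36.0% of T cells, at median depths of 8104, 15757, 7858 and 9779 UMIs in microglia. In thinned cells the shares were 71.8, 77.9, 69.9 and 60% and 12.4, 10.96, 14.2 and 13.9%.

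Timp3, the inhibitor that is held in the extracellular matrix, was a vessel-wall and fibroblast transcript, and it was also clear in tumor cells. Endothelial cells had 1612 and 1367 CPM in shNC and 1439.7 and 994 CPM in shSELP (1353 ± 260.5 CPM). Mural cells had 461 and 447 CPM in shNC and 587 and 451 CPM in shSELP (487 ± 67.5 CPM). Fibroblasts had 2846 CPM in shNC 1, 2606 in shSELP 1 and 1519.6 in shSELP 2 (426, 457 and 23 UMIs), a range that reached the endothelial cells. Tumor cells had 181 and 220.2 CPM in shNC and 115 and 148 CPM in shSELP (732, 563, 66 and 71 UMIs), below mural cells in every library.

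Macrophages had 1.27 and 0.672 CPM in shNC and 3.28 and 1.09 CPM in shSELP and stood below T cells in each library. Neutrophils, T cells, macrophages and microglia overlapped at the lower end. Tumor cells exceeded macrophages (log2 fold change 6.07, SE 0.33, adjusted p = 9.63e-10, higher in 4 of 4 libraries), at 6.84 in thinned cells. Neutrophils held 5 UMIs, too few for the fit, so no fold is given. Of these UMIs, 1 lay in the 58 neutrophils of the unnamed cluster that held most of the neutrophils.

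A Timp3 UMI was seen in 81.0, 76.7, 79.6 and 76.7% of endothelial cells, at median depths of 5355, 4204, 3264 and 4872 UMIs, and in 1.996, 0.879, 2.44 and 1.51% of T cells. Endothelial cells also held mural markers, 1711, 906, 804 and 229 CPM summed over the 8 genes of that list, led by Vtn in shNC 1 and Rgs5 in the others. Mural cells held 584, 916, 939.9 and 689 CPM over the 8 endothelial markers. The part of this mixing in the vascular levels was not tested, and no test was run on vascular cells: mural cells and fibroblasts numbered under 20 in some libraries, and endothelial cells, at least 21 in each, had no test in the design.

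In shSELP 1, neutrophils with Mmp8 also carried Mmp9, and most of the Mmp8 lay in cells with granule transcripts. All 17 neutrophils with Mmp8 also had Mmp9, which was seen in 39 of 61 neutrophils, but 15 of the 17 were in shSELP 1, and the other libraries had 1, 0 and 1, too few to show a pattern. Cells with Camp, Ngp or Ltf, genes of the granules that immature neutrophils fill, numbered 1 of 7, 2 of 11, 11 of 25 and 8 of 18. These 22 cells held 96 of the 123 Mmp8 UMIs (81 of the 96 in shSELP 1) and 74 of the 146 Mmp9 UMIs. The split by Camp, Ngp and Ltf without Lcn2 was chosen after the levels were seen. Mmp8 is known as a content of the specific granules and Mmp9 of the tertiary granules, which form later.

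The neutrophils of shNC 2, which had no Mmp8 and the lowest Mmp9, stood apart in their markers too. All 9 neutrophil markers were detected in every library, but their sum was 234310, 23493, 284690 and 172547 CPM, led by S100a8, or by S100a9 in shNC 2. The sum of the 4 granule genes was 58172, 75.9, 48295 and 50766 CPM, with Camp, Ngp and Lcn2 at 0 in shNC 2. That library also held 304 CPM over the 6 T-cell markers and 228 CPM over the 6 NK-cell markers, all Gzma, against at most 33.2 and 11.6 CPM in the others. Macrophage markers in neutrophils summed to 7201, 3226, 7376 and 3655 CPM, led by Lyz2, or by Plac8 in shNC 2, with Ccr2 at 0 in all. The part of these differences in the Mmp8 and Mmp9 levels was not tested.

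An unsupervised cluster led by Retnlg, a neutrophil marker, held 496 cells, of which the gates called 58 neutrophils, 372 macrophages and 60 ungated. Mmp9 followed the gates within it: the neutrophils had 138 UMIs (960.3 CPM) and the macrophages 4 (1.58 CPM). Mmp8 did so too, at 752 CPM in neutrophils and 19.7 CPM in macrophages. The cluster was picked out after the tables were seen.

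Macrophages were split by further marker lists into states, none of whose markers is a member, and 618 macrophages fitted no state clearly. The sharpest differences lay between the Ly6c2 Ccr2 monocytes, cells newly arrived from blood, and the rest. Monocytes were low in most proteinases and in Timp2 and high in Timp1. Gpnmb-high cells were high in Mmp2 and Timp2. Each state was compared with the mean of the others in 1 edgeR fit over the 4 libraries, with 7351 genes and 8 members tested. Mmp9 and Timp3 were too sparse for this fit, at 0 to 18.3 CPM and 0 to 5.63 CPM over states and libraries.

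Read against all genes, the Nos2/Inhba inflammatory state had 1 member higher (5.62% of genes) and 1 lower (2.72%). Monocytes had 1 member higher (20.6%) and 5 lower (19.7%), with a median log2 fold change of −1.17 over the 8 members and −0.03 over all genes. The Dnase1l3 Ms4a7 state had 0 members higher (4.41%) and 2 lower (4.98%). Gpnmb-high cells had 2 higher (10.6%) and 1 lower (10.7%), and proliferating cells 1 higher (9.21%) and 0 lower (7.26%).

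Outside the monocytes the members' medians lay between 0.02 and 0.19, against −0.01 to 0.00 over all genes. At an unadjusted p under 0.05, members numbered 3 in the Nos2/Inhba state, 7 in monocytes, 7 in Dnase1l3 Ms4a7, 4 in Gpnmb-high and 4 in proliferating cells, beside 1549, 3529, 1553, 2355 and 2093 of all 7351 genes. Over these states DESeq2 called 14 member contrasts and edgeR 14. With no filter edgeR called 23, among them further calls of Mmp12 in Nos2/Inhba and Dnase1l3 Ms4a7 cells and of Mmp8 in monocytes, Gpnmb-high and proliferating cells. Mmp13 and Timp2 in Dnase1l3 Ms4a7 cells and Timp1 in proliferating cells were also called. The share of all genes called in that fit is not given here, so the rise is not read as a result about the members.

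**Figure D2:**
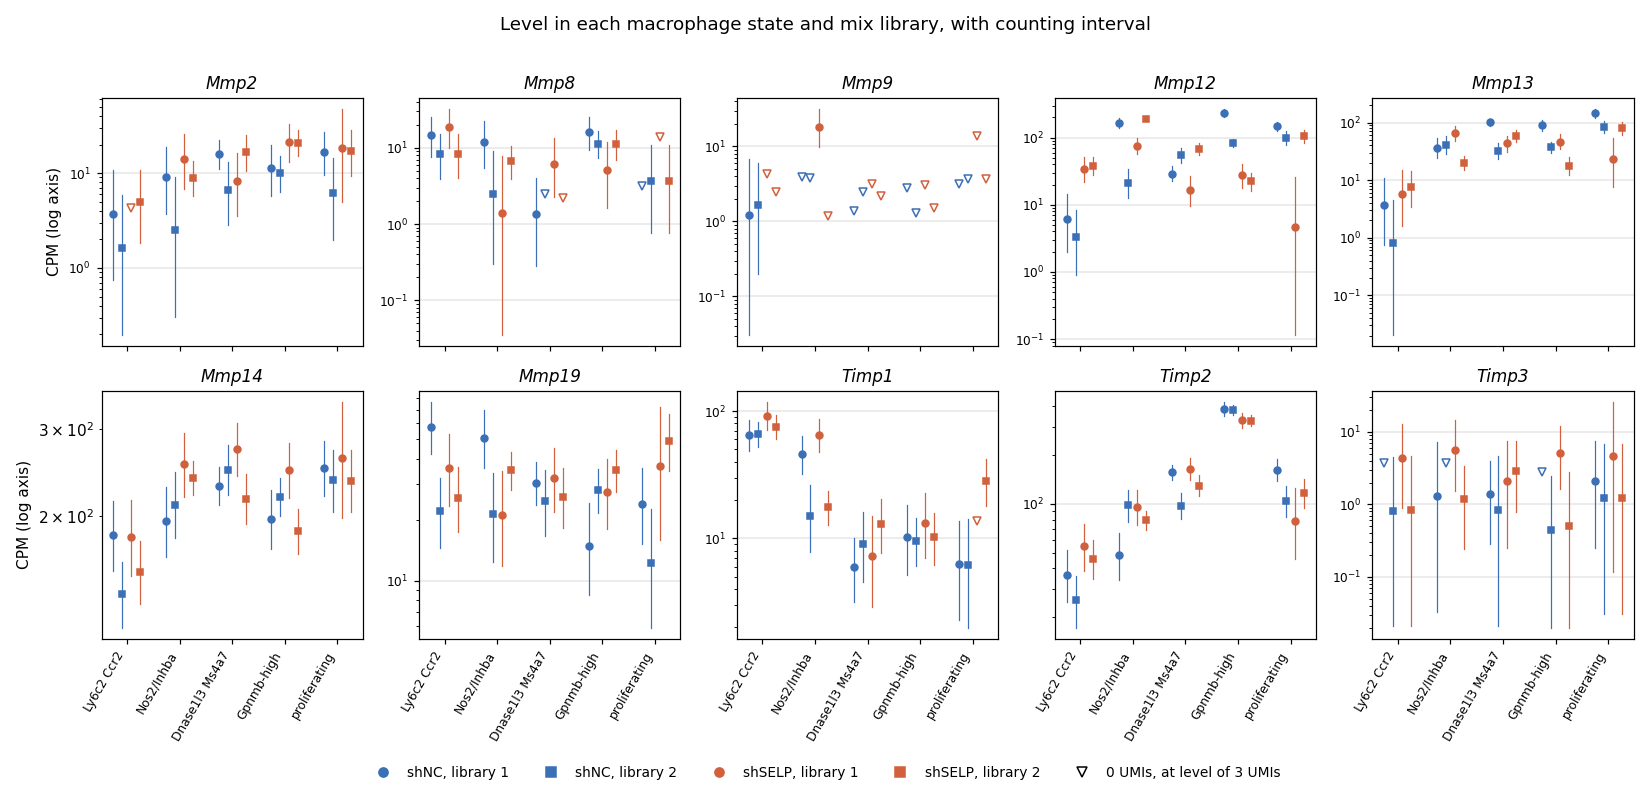
Level of each of the 10 genes (CPM, log axis) in macrophage states, with 1 point per mix library, bars for the 95% counting interval and open triangles at the level of 3 UMIs where a library had 0. Monocytes lie lowest for Mmp13, Mmp14 and Timp2 and highest for Timp1 in every library.

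Mmp12 was low in the monocytes of the shNC libraries and spread widely between libraries in the other states. Monocytes had 6.10 and 3.28 CPM in shNC and 34.6 and 38.2 CPM in shSELP (5, 4, 24 and 46 UMIs). They were the lowest state in both shNC libraries and stood above Gpnmb-high cells in both shSELP libraries. Nos2/Inhba cells had 167 and 21.4 CPM in shNC and 76.1 and 191 CPM in shSELP (128, 17, 54 and 489 UMIs), and Gpnmb-high cells 234 and 83.9 CPM in shNC and 27.4 and 22.4 CPM in shSELP (251, 192, 27 and 44 UMIs). These 2 states disagreed in the library that stood highest, shSELP 2 for Nos2/Inhba and shNC 1 for Gpnmb-high.

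For Mmp12 the monocytes were called lower (log2 fold change −2.31, SE 0.59, adjusted p = 0.00220, lower in 3 of 4 libraries). Ranges overlapped between neighbours in the order Nos2/Inhba, Gpnmb-high, proliferating, Dnase1l3 Ms4a7 and monocyte by mean. In thinned cells the Nos2/Inhba state was also called, at 1.32 (adjusted p = 0.00997), and the Dnase1l3 Ms4a7 state, at −1.68 (adjusted p = 0.0197).

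Mmp13 was nearly missing from monocytes and present in every other state. Monocytes had 3.66 and 0.820 CPM in shNC and 5.76 and 7.48 CPM in shSELP (3, 1, 4 and 9 UMIs), below every other state in each library. Proliferating cells had 144 and 83.4 CPM in shNC and 23.0 and 79.5 CPM in shSELP (138, 68, 5 and 65 UMIs). Dnase1l3 Ms4a7 cells had 101 and 32.1 CPM in shNC and 43.4 and 58.6 CPM in shSELP. These states, Gpnmb-high and Nos2/Inhba cells overlapped.

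For Mmp13 the fit called monocytes lower (log2 fold change −3.78, SE 0.46, adjusted p = 6.77e-08, lower in 4 of 4 libraries), at −4.54 without shSELP 2, and proliferating cells higher (log2 fold change 1.36, SE 0.27, adjusted p = 0.000495, higher in 3 of 4 libraries). The exception among proliferating cells was shSELP 1, with 5 UMIs in 14 cells. Under a stricter gate margin, which left 82 of the 145 proliferating cells, their mean Mmp13 level went from 82.5 to 53.7 CPM, below that of Dnase1l3 Ms4a7 cells at 63.0 CPM. Median depth of monocytes was 5724, 6899, 6662 and 9047 UMIs, shallower than the other states at 9698 to 24854.

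Mmp8 was sparse in the macrophage states. Dnase1l3 Ms4a7 cells had 1.37 and 0 CPM in shNC and 6.21 and 0 CPM in shSELP (3, 0, 6 and 0 UMIs) and were called lower (log2 fold change −2.31, SE 0.71, adjusted p = 0.0377, lower in 4 of 4 libraries).

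The Dnase1l3 Ms4a7 call for Mmp8 was lost without shNC 1 at −2.24 (adjusted p = 0.136), without shNC 2 at −1.84 (adjusted p = 0.125) without shSELP 2 at −1.83 (adjusted p = 0.204), without the library block at −2.28 (adjusted p = 0.0735) and without likely doublets at −2.23 (adjusted p = 0.0531), and stood at −3.59 (adjusted p = 0.0117) without shSELP 1. Monocytes had 14.7 and 8.20 CPM in shNC and 18.7 and 8.31 CPM in shSELP and were called without shNC 2, at 1.38 (adjusted p = 0.0326). Gpnmb-high cells had 15.9 and 11.4 CPM in shNC and 5.08 and 11.2 CPM in shSELP and were called without shSELP 1, at 1.41 (adjusted p = 0.0367). All neighbours in the order of states overlapped for Mmp8.

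Mmp2 was highest in the Gpnmb-high state, cells with genes of lipid handling such as Lpl and Fabp5. Gpnmb-high cells had 11.2 and 10.1 CPM in shNC and 21.3 and 20.9 CPM in shSELP (12, 23, 21 and 41 UMIs), the highest state in 3 libraries. Monocytes had 3.66 and 1.64 CPM in shNC and 0 and 4.99 CPM in shSELP (3, 2, 0 and 6 UMIs), the lowest state in 3. The fit called Gpnmb-high cells higher (log2 fold change 1.09, SE 0.25, adjusted p = 0.00186, higher in 4 of 4 libraries) and monocytes lower (log2 fold change −1.94, SE 0.43, adjusted p = 0.000513, lower in 4 of 4 libraries). States between them overlapped with each neighbour.

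Mmp14 and Mmp19 differed little among states. For Mmp14, monocytes had 183 and 139 CPM in shNC and 181 and 155 CPM in shSELP, the lowest state in each library, and the other states lay between 187 and 273 CPM with overlapping ranges. Monocytes were called lower (log2 fold change −0.53, SE 0.08, adjusted p = 1.44e-06, lower in 4 of 4 libraries). Mmp19 lay between 12.3 and 57.4 CPM over all states and libraries, and no state was called, at 0 member calls in edgeR and in DESeq2 for this gene and at 0 contrasts with an unadjusted p under 0.05.

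Timp1 was highest in monocytes. They had 64.7 and 65.6 CPM in shNC and 92.2 and 75.7 CPM in shSELP (53, 80, 64 and 91 UMIs), the highest state in each library. Nos2/Inhba cells had 45.7 and 15.1 CPM in shNC and 64.8 and 17.6 CPM in shSELP, with shNC 1 and shSELP 1 high and the other 2 low. Gpnmb-high, proliferating and Dnase1l3 Ms4a7 cells followed with overlapping ranges. Monocytes were called higher (log2 fold change 2.34, SE 0.22, adjusted p = 5.6e-10, higher in 4 of 4 libraries).

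Nos2/Inhba cells were called higher in Timp1 (log2 fold change 0.84, SE 0.27, adjusted p = 0.0466, higher in 2 of 4 libraries), but the call was lost without shNC 1 at 0.53 (adjusted p = 0.377), without shNC 2 at 0.97 (adjusted p = 0.0633) without shSELP 1 at 0.51 (adjusted p = 0.368), without the library block at 0.94 (adjusted p = 0.0921) and without likely doublets at 0.84 (adjusted p = 0.0649), and stood at 1.45 (adjusted p = 0.000512) without shSELP 2 and 1.53 (adjusted p = 0.0262) in thinned cells. Dnase1l3 Ms4a7 cells, with 5.93, 9.05, 7.24 and 13.0 CPM, were called lower (log2 fold change −1.34, SE 0.33, adjusted p = 0.00726, lower in 4 of 4 libraries), a call lost without shNC 1 at −1.19 (adjusted p = 0.0712) and in thinned cells at −0.98 (adjusted p = 0.451). Gpnmb-high cells, with 10.3, 9.62, 13.2 and 10.2 CPM, were called lower (log2 fold change −0.92, SE 0.31, adjusted p = 0.0314, lower in 4 of 4 libraries), a call lost without shNC 2 at −0.998 (adjusted p = 0.0892), without shSELP 1 at −0.85 (adjusted p = 0.0636), without shSELP 2 at −0.73 (adjusted p = 0.1003), without the library block at −0.95 (adjusted p = 0.0746) and in thinned cells at −1.39 (adjusted p = 0.204). Proliferating cells, with 6.26, 6.13, 0 and 28.1 CPM, were called lower without shSELP 2, at −1.88 (adjusted p = 0.00322).

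Timp2 ran against Timp1, highest in Gpnmb-high cells and lowest in monocytes. Gpnmb-high cells had 385 and 379 CPM in shNC and 328 and 326 CPM in shSELP, above every other state in each library. Monocytes had 36.6 and 25.4 CPM in shNC and 54.7 and 45.7 CPM in shSELP, the lowest in each library, although their range reached that of Nos2/Inhba cells at 48.3 and 98.0 CPM in shNC and 95.8 and 79.2 CPM in shSELP. Dnase1l3 Ms4a7 cells and proliferating cells overlapped in between.

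The fit called Gpnmb-high cells higher in Timp2 (log2 fold change 2.03, SE 0.11, adjusted p = 7.23e-15, higher in 4 of 4 libraries) and monocytes lower (log2 fold change −1.82, SE 0.18, adjusted p = 9.04e-10, lower in 4 of 4 libraries). Nos2/Inhba cells were called lower (log2 fold change −0.55, SE 0.15, adjusted p = 0.0182, lower in 4 of 4 libraries), a call lost without shNC 1 at −0.33 (adjusted p = 0.215), without shSELP 2 at −0.60 (adjusted p = 0.0739) and without the library block at −0.57 (adjusted p = 0.0633). In thinned cells the Dnase1l3 Ms4a7 state was called higher, at 0.56 (adjusted p = 0.0365).

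Between the hairpin groups no member passed the edgeR test with its filter in the 4 cell classes tested. Some members lay on separate sides in the 2 groups, and so did 45.0% of all genes tested in macrophages, 45.9% in microglia and 47.6% in tumor cells. In macrophages Mmp2 and Timp1 were higher and Mmp13 lower in both shSELP libraries, and in tumor cells Mmp2 and Timp1 were higher and Timp3 lower. In microglia Mmp12, Mmp14 and Timp2 were lower in both shSELP libraries, and among genes too sparse to test there Mmp13 (28 UMIs in shNC and 13 in shSELP) was lower and Mmp8 (0 and 5) and Timp3 (2 and 10) higher. By edgeR with its filter on low counts, none of the differences tested passed an adjusted p of 0.05, and DESeq2 called 0 members as well. With no filter edgeR called 4 members in macrophages (Mmp2, Mmp12, Mmp13 and Timp1) and 3 in microglia, Mmp12 and Timp2 among them. It called 0 in neutrophils and 2 in tumor cells (Mmp2 and Timp1). The same fits called 604 of all genes for shSELP against shNC, macrophage-like, and 452, 1 and 386 in the other 3 classes. The share of all genes called in these fits is not given here, so the calls with no filter are not read as a result about the members. The groups overlap for Mmp12 in macrophages.

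The count was 0 of 9 members tested in macrophages, where 0.486% of 10699 genes were called, 0 of 5 in microglia (0.237% of 8444), 0 of 2 in neutrophils (0% of 639) and 0 of 5 in tumor cells (0.0426% of 9384), with DESeq2 at 0 members in each. At an unadjusted p under 0.05 edgeR gave 3, 2, 0 and 3 members, beside 1351, 1273, 15 and 1316 of all genes. Median log2 fold changes of the members were 0.12, −0.32, 0.88 and 0.16, against −0.01, 0.01, 0.02 and −0.01 over all genes. The calls over all genes in macrophages, 52, went to 133 without shNC 2 and to 14 without shSELP 1. In microglia, 20 went to 138 without shNC 1 and to 266 without shSELP 2, and in tumor cells 4 went to 28 without shNC 1, 223 without shNC 2 and 2 without shSELP 1.

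**Figure D3:**
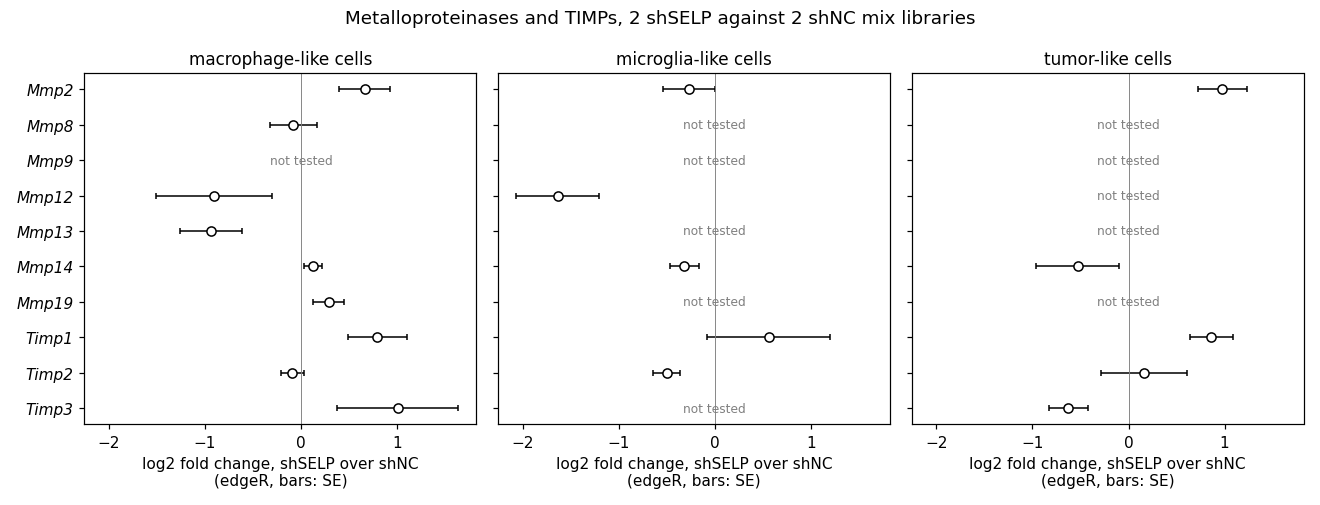
Log2 fold change of shSELP over shNC with SE bars for the 10 genes in macrophages, microglia and tumor cells of the mix, with untested genes marked. No member passed an adjusted p of 0.05 in edgeR with its filter on low counts, and the signs of Timp1 and Timp3 oppose each other in tumor cells, at 0.86 and −0.62.

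In macrophages, Mmp13 was 114 and 50.7 CPM in shNC against 41.6 and 41.1 CPM in shSELP (log2 fold change −0.94, SE 0.32, adjusted p = 0.269, with both shSELP libraries below both shNC libraries). The replicate block, which pairs libraries by number alone, called it at −0.80 (adjusted p = 0.0322), and it was also called without shNC 2, at −1.43 (adjusted p = 0.000437). Without shNC 1 it was −0.20. Mmp12 was 213 and 66.8 CPM against 29.2 and 109.5 CPM (log2 fold change −0.91, SE 0.60, adjusted p = 0.579), with overlapping groups, and Mmp12, shSELP against shNC, macrophage-like, turned to 0.21 without shNC 1. Over the alternatives the adjusted p of Mmp13, shSELP against shNC, macrophage-like, ran from 2.22e-11 to 0.999, the lowest with no filter on low counts.

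Timp1 in macrophages was 17.4 and 18.7 CPM in shNC against 43.4 and 19.9 CPM in shSELP (log2 fold change 0.79, SE 0.31, adjusted p = 0.333). The groups were apart, though by little except in shSELP 1, where 1 cell held 34.5% of the UMIs, and the value of Timp1, shSELP against shNC, macrophage-like, was 0.21 without shSELP 1 and 1.32 (adjusted p = 0.00653) without shSELP 2, with adjusted p from 9.48e-06 to 0.999 over the alternatives. T cells had 9.39, 8.48, 27.0 and 12.6 CPM, below the macrophages of the same library in each case, though the T-cell level of shSELP 1 exceeded 3 of the 4 macrophage levels. The 372 macrophages of the Retnlg cluster held 375 of the 829 Timp1 UMIs, at 109 and 95.2 CPM in shNC and 339 and 102 CPM in shSELP, and macrophages outside it had 10.9 and 11.9 CPM in shNC and 14.2 and 15.1 CPM in shSELP, and the part of free RNA was not tested. Mmp2 was 10.7 and 5.82 CPM against 12.2 and 12.7 CPM (log2 fold change 0.66, SE 0.27, adjusted p = 0.351), with both shSELP libraries above both shNC libraries. Mmp8, Mmp14, Mmp19, Timp2 and Timp3 ranged from −0.09 to 1.004 with adjusted p from 0.521 to 0.929 and overlapping groups. Mmp9 had 3 UMIs in shNC and 14 in shSELP and was not tested.

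Macrophages also held markers of other classes. Tumor markers summed to 36.5, 34.1, 13.9 and 22.9 CPM over 8 genes, led by Prph or, in shNC 1, H19, with Sox11 at 0 in shNC 2, and neutrophil markers to 250.2, 485, 327 and 329 CPM over 9 genes, led by Trem1 or, in shNC 2, S100a8, with Retnlg at 0 in 3 libraries. Granule genes reached 99.7 CPM in shNC 2, led by Camp, and at most 9.87 CPM elsewhere. Their part in the macrophage levels was not tested.

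In microglia, Mmp12 was 13.2 and 34.6 CPM in shNC against 10.8 and 5.33 CPM in shSELP (log2 fold change −1.64, SE 0.43, adjusted p = 0.151, both shSELP libraries below both shNC libraries). In each library 1 cell held much of it, 6 of 12, 39 of 66, 17 of 34 and 6 of 9 UMIs. It was called without shNC 1, which leaves shNC 2 alone in its group, at −2.02 (adjusted p = 0.00515), with the cells of highest doublet score left out, at −2.03 (adjusted p = 0.0351), and with clusters in place of gates, at −1.43 (adjusted p = 0.0223), and the adjusted p of Mmp12, shSELP against shNC, microglia-like, ran from 3.38e-05 to 0.806 over the alternatives. Timp2 was 1263 and 1530.0 CPM against 1007 and 1036 CPM (log2 fold change −0.50, SE 0.14, adjusted p = 0.156, both shSELP libraries below). With no filter edgeR called Timp2 at −0.49 (adjusted p = 0.0248). Mmp14 was 74.6 and 72.8 CPM against 61.4 and 60.4 CPM (log2 fold change −0.32, SE 0.15, adjusted p = 0.359, both shSELP libraries below).

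Mmp2 and Timp1 in microglia overlapped between groups, at −0.27, SE 0.27, adjusted p = 0.684 and 0.56, SE 0.64, adjusted p = 0.727 on the log2 scale, and Timp1, shSELP against shNC, microglia-like, turned to −0.18 without shSELP 2. The other 5 members were too sparse to test. Macrophage markers in microglia summed to 2163, 1876, 2347 and 1641 CPM over 10 genes, led by Lyz2, and mural markers reached 33.4 CPM in shSELP 1 against at most 2.96 CPM elsewhere. Their part was not tested.

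In tumor cells, Timp1 was 196 and 284 CPM in shNC against 458 and 414 CPM in shSELP (log2 fold change 0.86, SE 0.22, adjusted p = 0.189, both shSELP libraries above both shNC libraries). Mmp2 was 70.2 and 115 CPM against 160.3 and 207 CPM (log2 fold change 0.98, SE 0.26, adjusted p = 0.193, again with both above). Without shNC 2 both were called, Timp1 at 1.09 (adjusted p = 0.0325) and Mmp2 at 1.31 (adjusted p = 0.0123). Over the alternatives the adjusted p of Timp1, shSELP against shNC, tumor-like, ran from 0.0249 to 0.524 and that of Mmp2, shSELP against shNC, tumor-like, from 0.00780 to 0.510. Timp3 lay the other way, at 181 and 220.2 CPM against 115 and 148 CPM (log2 fold change −0.62, SE 0.21, adjusted p = 0.258, both shSELP libraries below). Timp2 and Mmp14 overlapped between groups, at 0.16, SE 0.45, adjusted p = 0.899 and −0.53, SE 0.43, adjusted p = 0.612 on the log2 scale, and Timp2, shSELP against shNC, tumor-like, turned to −0.45 without shNC 1 and Mmp14, shSELP against shNC, tumor-like, to 0.07 without shSELP 2.

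The shSELP tumor cells were few, 40 and 51 against 263 and 160, and those of shSELP 2 were shallow. Tumor markers, all 8 of which were detected in each library, summed to 3512, 2689.7, 2419 and 2555 CPM. Macrophage markers summed to 556, 561, 664 and 689.9 CPM over 10 genes, led by Fn1, with Ms4a7 and Ccr2 at 0 in both shSELP libraries. Fibroblast markers summed to 49.2, 56.3, 106 and 58.5 CPM over 6 genes, led by Serpinf1, with Dcn at 0 in 3 libraries, and mural markers to 13.8, 10.95, 31.4 and 31.4 CPM, led by Cspg4. Lcn2, which binds Mmp9, made up nearly all of the granule-gene sum of 1.48, 46.5, 798 and 659 CPM. The part of these transcripts in the tumor-cell levels was not tested.

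In neutrophils the groups overlapped for Mmp9 (0.48, SE 0.76, adjusted p = 0.995) and for Mmp8 (1.29, SE 1.61, adjusted p = 0.995) on the log2 scale. Mmp8, shSELP against shNC, neutrophil-like, turned to −2.38 without shSELP 1 and Mmp9, shSELP against shNC, neutrophil-like, to −0.25 without shNC 2. Timp1, Timp2 and Timp3 had 0 UMIs in shNC and 4, 24 and 5 in shSELP, whose neutrophils held 86220 and 60198 UMIs against 14165 and 26348.

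Vascular levels are given without a test. Timp1 in endothelial cells was 53.0 and 21.0 CPM in shNC against 7.91 and 19.3 CPM in shSELP, and in mural cells 154 and 335 CPM against 84.6 and 89.1 CPM, with shSELP lower than shNC in all 4 libraries of each class. Timp3 in endothelial cells overlapped between the groups. The mural markers in the same endothelial cells were also lower in both shSELP libraries, at 804 and 229 CPM against 1711 and 906 CPM, and their part was not tested.

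In the CD11b+ libraries, 1 per group, the macrophages of shSELP held less Mmp12, Mmp13 and Mmp19 and more Mmp14 than those of shNC. With no replicate there is no test, and the exact intervals cover counting error in these 2 libraries alone. Macrophages numbered 1456 and 1771. Mmp12 was 166 CPM in shNC and 71.1 CPM in shSELP (1034 and 479 UMIs), a ratio of 0.428 with an exact interval of 0.383 to 0.477. These UMIs lay in 179 of the 1456 macrophages in shNC (12.3%) and 163 of the 1771 in shSELP (9.20%). The interval does not cover this uneven spread over cells. Mmp19 was 38.9 CPM in shNC and 23.6 CPM in shSELP (242 and 159 UMIs), a ratio of 0.607 with an exact interval of 0.494 to 0.744. These 2 of 8 members with at least 50 UMIs passed a ratio of 1.5 either way, where 15.6% of 8506 genes did, and the members' median log2 ratio was −0.11 against 0.12 over all genes. The limits of 50 UMIs and 1.5-fold were set after the table was seen.

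Mmp13 in these macrophages was 85.9 CPM in shNC and 57.6 CPM in shSELP (534 and 388 UMIs), a ratio of 0.671 with an exact interval of 0.587 to 0.766, but 0.942 with cells thinned to 2000 UMIs. Mmp14 was 201 CPM in shNC and 289 CPM in shSELP (1252 and 1943 UMIs), a ratio of 1.43 with an exact interval of 1.33 to 1.54. The ratio of Mmp12 in thinned cells was 0.480, on the same side. In thinned cells Mmp19, at 0.681, no longer passed 1.5-fold and Mmp14, at 1.52, did. Mmp2, at 1.68 (12 and 24 UMIs), and Mmp8, at 0.644 (34 and 26 UMIs), also passed it in thinned cells. With TMM factors Mmp13, at 0.623, passed it, so which members pass depends on the scaling. Without thinning, Mmp2, Mmp8, Timp1 and Timp2 had intervals that include 1, with ratios of 1.17, 0.883, 1.28 and 0.973. Mmp9 (3 and 0 UMIs) and Timp3 (2 and 2 UMIs) gave no level.

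In CD11b+ microglia, 246 and 208 cells, Timp2 was 1355 CPM in shNC and 1498 CPM in shSELP (2105 and 1799 UMIs), a ratio of 1.11 with an exact interval of 1.04 to 1.18, and 1.003 in thinned cells. Mmp12 was 68.9 CPM in shNC and 59.1 CPM in shSELP (107 and 71 UMIs), a ratio of 0.859 with an exact interval of 0.627 to 1.17, and these UMIs lay in 25 of the 246 cells in shNC and 5 of the 208 in shSELP. Mmp13 was 24.5 CPM in shNC and 8.33 CPM in shSELP (38 and 10 UMIs). The ratio was 0.341 with an exact interval of 0.151 to 0.697, and 0.176 in thinned cells (13 and 2 UMIs). Macrophage markers in these microglia summed to 4180.2 CPM in shNC and 3020.1 CPM in shSELP, led by Lyz2, and their part was not tested. Of the 3 members with at least 50 UMIs, 0 passed a ratio of 1.5, where 12.3% of 5005 genes did, and their median log2 ratio was 0.15 against 0.04 over all genes. Neutrophils were 10 and 2 cells, with 7 and 0 UMIs of Mmp9 and 3 and 0 of Mmp8.

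By state, CD11b+ shSELP cells held less Mmp12 in the Nos2/Inhba, Gpnmb-high and proliferating states and not in the monocytes. Gpnmb-high cells had a ratio of 0.588 with an exact interval of 0.436 to 0.789, and 0.455 in thinned cells. In Dnase1l3 Ms4a7 cells the ratio was 0.718 with an exact interval of 0.488 to 1.05, which includes 1, and 0.427 in thinned cells. Nos2/Inhba cells had 181 CPM in shNC and 54.0 CPM in shSELP (94 and 47 UMIs), a ratio of 0.298 with an exact interval of 0.205 to 0.427, and 0.362 in thinned cells. Proliferating cells had 247 CPM in shNC and 38.6 CPM in shSELP (70 and 11 UMIs), a ratio of 0.156 with an exact interval of 0.0747 to 0.297, and 0.291 in thinned cells (12 and 4 UMIs). Monocytes went the other way, with 5.88 CPM in shNC and 29.5 CPM in shSELP (5 and 21 UMIs). The ratio was 5.01 with an exact interval of 1.84 to 17.0, and 14.2 in thinned cells (1 and 11 UMIs). Before thinning, the UMIs lay in 3 of 314 monocytes in shNC and 8 of 318 in shSELP. In shNC and shSELP they lay in 28 of 133 and 25 of 245 Nos2/Inhba cells and in 10 of 34 and 7 of 39 proliferating cells. For Gpnmb-high cells the counts were 27 of 232 and 31 of 296, and for Dnase1l3 Ms4a7 cells 19 of 247 and 23 of 261. Differences between states were not tested.

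Mmp13 in CD11b+ Gpnmb-high cells was 65.1 CPM in shNC and 29.9 CPM in shSELP (79 and 42 UMIs), a ratio of 0.459 with an exact interval of 0.308 to 0.675, and 0.661 in thinned cells. In Dnase1l3 Ms4a7 cells it was 51.7 CPM in shNC and 104 CPM in shSELP (59 and 120 UMIs), a ratio of 2.01 with an exact interval of 1.46 to 2.80, the opposite side, and 1.95 in thinned cells. As in the mix, Timp1 was high in monocytes, at 34.1 and 49.1 CPM, and Timp2 in Gpnmb-high cells, at 421 and 394 CPM.

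Other genes of matrix proteolysis were followed as a list of 43, of which 42 were rows of the mix table: other metalloproteinases, the plasminogen system, Adam and Adamts proteases and binding partners. Between hairpin groups 0 of them passed the edgeR test, of 22 tested in macrophages, 16 in microglia, 5 in neutrophils and 24 in tumor cells. The 5 nearest by adjusted p were Plau at −0.82 (SE 0.15, adjusted p = 0.0650), urokinase, and Plaur at 0.49 (SE 0.10, adjusted p = 0.0806), its receptor, in macrophages, Cd63 at −0.76 (SE 0.13, adjusted p = 0.0705) in microglia, and Adamts1 at −1.13 (SE 0.19, adjusted p = 0.120) and Lcn2 at 5.03 (SE 0.92, adjusted p = 0.128) in tumor cells, on the log2 scale, and these 5 were named after their values were seen.

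Tumor cells exceeded macrophages in 11 of 26 list genes tested and lay below them in 11, where 32.8% and 36.8% of all genes were higher and lower, with a list median log2 fold change of 0.11 against −0.06 over all genes. Higher were Mmp16 at 6.60 (SE 0.36, adjusted p = 1.09e-09), a membrane-type metalloproteinase, Adamts9 at 6.59 (SE 0.54, adjusted p = 7.29e-08) and Sparc at 5.38 (SE 0.18, adjusted p = 3.4e-11). Lower were Adam8 at −7.02 (SE 0.26, adjusted p = 3.71e-11), Mmp25 at −5.93 (SE 0.63, adjusted p = 1.18e-06) and Plau at −5.78 (SE 0.38, adjusted p = 6.76e-09).

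Microglia exceeded macrophages in 9 of 21 list genes and lay below in 7 (over all genes 23% and 22.3%; median 0.08 against 0.02). Higher were Serpine2 at 6.67 (SE 0.19, adjusted p = 3.39e-11), an inhibitor of plasminogen activators, Sparc at 5.98 (SE 0.14, adjusted p = 1.28e-11) and Adamts1 at 3.37 (SE 0.22, adjusted p = 4.92e-08). Lower were Cd44 at −1.95 (SE 0.11, adjusted p = 1.39e-08), Adam8 at −1.89 (SE 0.15, adjusted p = 3.94e-07) and Plaur at −1.80 (SE 0.15, adjusted p = 4e-07).

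Neutrophils exceeded macrophages in 3 of 18 and lay below in 3 (over all genes 3.32% and 10.9%; median −1.002 against −0.79). Higher were Lcn2 at 8.89 (SE 0.77, adjusted p = 8.7e-28), Plat at 3.005 (SE 0.90, adjusted p = 0.00955) and Cd44 at 1.37 (SE 0.41, adjusted p = 0.00963). Lower were Lrp1 at −4.36 (SE 0.78, adjusted p = 1.38e-06), the receptor that takes up proteases and inhibitors, Adam10 at −2.17 (SE 0.74, adjusted p = 0.0292) and Cd63 at −1.34 (SE 0.44, adjusted p = 0.0231). Some of these calls rest on few neutrophil UMIs: 1, 1, 4 and 0 of Plat, 0, 1, 1 and 0 of Lrp1 and 0, 2, 2 and 0 of Adam10. Neutrophil Lcn2 had 115, 0, 638 and 297 UMIs.

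Among states, 41 list genes remained after the gate markers Cd63 and Adam8 were left out, and 14 were tested. Shares of all genes higher and lower in the same fit follow each count. Monocytes had 4 higher and 4 lower (20.6% and 19.7%), with Lcn2 at 2.94 (SE 0.40, adjusted p = 6.83e-07), Cd44 at 1.01 (SE 0.08, adjusted p = 8.31e-12) and Adam15 at −0.66 (SE 0.12, adjusted p = 8.4e-05). Dnase1l3 Ms4a7 cells had 0 higher and 5 lower (4.41% and 4.98%), with Cd44 at −0.59 (SE 0.09, adjusted p = 1.98e-05). Gpnmb-high cells had 2 higher and 1 lower (10.6% and 10.7%), with Lrp1 at 0.73 (SE 0.07, adjusted p = 2.12e-09). Nos2/Inhba cells had 2 higher and 0 lower (5.62% and 2.72%), with Furin at 0.35 (SE 0.09, adjusted p = 0.0127), the protease that activates the Mmp14 protein, and proliferating cells 0 higher and 3 lower (9.21% and 7.26%), with Plaur at −0.45 (SE 0.08, adjusted p = 0.000145).

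By GENCODE M21 on mm10, Mmp13 at chr9:7272514-7283331 (plus strand), Mmp12 at chr9:7344381-7369499 (plus strand) and Mmp8 at chr9:7558456-7568485 (plus strand) lie within 296 kb of chromosome 9. The other members lie on other chromosomes.

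Promoters were matched by symbol in a RefSeq table for GRCm38.p6 that holds 250 bases before to 50 bases after each gene start. It matched 7 members with 8 promoters, Mmp12 with 2, and had no entry for Mmp2, Mmp9 and Mmp19. TGANTCA, the AP-1 motif read on both strands, was chosen for the search after the levels were seen. It lies in 2 of the 8 promoters, Mmp13 and 1 of those of Mmp12, and in 2565 of all 32851 promoters (7.81%). The motif begins 35 bases before the start in Mmp13 (chr9:7272264-7272563, plus strand) and 44 bases before it in Mmp12 (chr9:7347124-7347423, plus strand). A match describes letters in a window and is not evidence that a factor binds there. The 2 promoters are shown because they hold the motif and both genes were macrophage transcripts, with the motif in capitals.
Mmp13: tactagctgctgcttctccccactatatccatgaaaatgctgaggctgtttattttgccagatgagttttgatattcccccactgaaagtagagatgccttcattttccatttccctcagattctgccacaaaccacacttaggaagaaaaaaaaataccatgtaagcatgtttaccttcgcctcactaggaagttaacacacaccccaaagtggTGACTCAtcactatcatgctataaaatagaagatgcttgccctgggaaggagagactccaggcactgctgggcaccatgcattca
Mmp12: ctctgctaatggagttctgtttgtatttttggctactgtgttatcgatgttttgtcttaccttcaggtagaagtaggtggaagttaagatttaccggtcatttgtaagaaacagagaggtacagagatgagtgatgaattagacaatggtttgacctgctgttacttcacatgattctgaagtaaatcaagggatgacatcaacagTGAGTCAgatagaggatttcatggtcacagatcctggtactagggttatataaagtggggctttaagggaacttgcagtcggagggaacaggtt

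Ungated cells held a share of the members that the gates do not place. The 439, 416, 346 and 393 ungated mix cells, at median depths of 10153, 6351, 6059 and 3643 UMIs, had 278 and 215 CPM in shNC and 35.0 and 74.4 CPM in shSELP of Mmp12, 36.1% of all its UMIs. Mmp13 in ungated cells was 113 and 47.1 CPM in shNC and 13.6 and 3.48 CPM in shSELP, and Mmp14 150.4 and 107 CPM in shNC and 80.1 and 64.3 CPM in shSELP. Cells near a gate limit numbered 1140 in the mix and 1486 in the CD11b+ table, where 1796 cells (32.4%) were ungated.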

How the data were processed

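Single-cell RNA libraries of 4 whole-tumor mixes and 2 CD11b+ samples were analysed, grouped by the labels. The deposited values are UMI counts per gene and cell, which per the submitters' notes the authors made with Cell Ranger 1.3 on mm10. Cells under 500 genes or over 10% mitochondrial UMIs were left out. Each marker of a list was scaled to its 0.9 quantile among cells with it, and a cell joined the class with the highest mean score if it had at least 3 markers, a score of at least 0.25 and a lead of 0.1 over the next class. Macrophages could hold at most 1 dendritic-cell marker. Macrophage states needed a positive z score and a lead of 0.25, or 3 proliferation markers. The scoring rule was set after the tables were seen, without looking at the members. The members and lists were chosen with earlier results of these data known.

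UMIs were summed per library and class or state and fitted with edgeR 4.0.16 (filterByExpr, TMM, quasi-likelihood) in R 4.3.3, with library as a block between classes and states, at a Benjamini-Hochberg adjusted p of 0.05 over all genes tested. DESeq2 1.42.0, no filter, leaving out each library, a replicate block or no block, thinning to 2000 UMIs, Seurat 5.3.0 clusters (12 components, resolution 0.8) and dropping the 5% of each library scored highest by Scrublet (scanpy 1.11.5) were alternatives. The steps were tested on simulated data. Exact intervals at 95% are Poisson for levels and conditional binomial for ratios (scipy 1.17.1, Python 3.11.15). Named genes were the 10 members in every comparison and, of a fixed pathway list, those past the threshold, at most 6 per comparison by size of change. Depth gave a floor of 3 UMIs per class and library. Vascular classes were given without a test, and states needed 10 cells in each library. A macrophage state of the fit and some genes are not reported here.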

Additional observations from a re-analysis of the deposited data

Results flagged for a closer look

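Timp1 lay on opposite sides in different cell classes, though no contrast between the groups passed edgeR with its filter. It was picked by this pattern from the levels of the 10 genes. The groups also lay apart for 45.0% of all genes tested in macrophages and 47.6% in tumor cells. The ratio of mean CPM in shSELP to shNC libraries was 1.75 in macrophages (adjusted p = 0.333) and 1.82 in tumor cells (adjusted p = 0.189), and 0.368 in endothelial cells and 0.355 in mural cells, which were not tested. Without shSELP 1, where 1 cell held 34.5% of the macrophage UMIs, the macrophage ratio was 1.10, the tumor ratio 1.73, the endothelial 0.522 and the mural 0.364. Without shNC 1, whose endothelial cells held 7 UMIs, the endothelial ratio was 0.649, without shSELP 2 it was 0.214, and without shNC 2 the mural ratio was 0.565. The difference between classes was not tested.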

How the results depend on the processing

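Beside edgeR on gated cells with its filter, the fits were repeated with DESeq2, no filter on low counts, a replicate block or no library block, each library left out in turn, cells thinned to 2000 UMIs, the 5% of cells with the highest doublet scores left out, and clusters in place of gates. Of values that passed the test, 557 kept direction and side of the threshold over these alternatives and 86 kept the direction but no longer passed. Of values that did not pass, 379 stayed so with the same sign, 31 passed and 39 changed sign, and the cause was not tested.

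For shSELP against shNC, macrophage-like, the 52 genes called became 109 by DESeq2, 604 with no filter, 235 with the replicate block, 7 in thinned cells, 82 without likely doublets, 151 with clusters, and 14 to 133 on leaving out a library. For shSELP against shNC, microglia-like, 20 became 50 by DESeq2, 452 with no filter, 0 with the replicate block, 35 in thinned cells, 134 without likely doublets, and 14 to 266 on leaving out a library. For shSELP against shNC, neutrophil-like, 0 became 1 with no filter, and clusters gave no value because no cluster was named neutrophil. For shSELP against shNC, tumor-like, 4 became 34 by DESeq2, 386 with no filter, 10 with the replicate block, 23 in thinned cells, and 2 to 223 on leaving out a library. Where a group was left with 1 library, that library was assumed to vary like the others.

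For neutrophil-like against macrophage-like, the 1197 genes called became 1874 without the library block, 185 in thinned cells, and 516 to 951 on leaving out a library. In thinned cells, which hold fewer UMIs, the genes called in tumor-like against macrophage-like went from 7595 to 3728, in microglia-like against macrophage-like from 4456 to 2288, and in macrophage states, each against the mean of the others, from 7044 to 2220.

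On leaving out a library, some log2 fold changes that did not pass the test crossed 0. In macrophages the ranges were −0.36 to 0.27 for Mmp8, shSELP against shNC, macrophage-like, −2.23 to 0.21 for Mmp12, shSELP against shNC, macrophage-like and −0.25 to 0.061 for Timp2, shSELP against shNC, macrophage-like. In microglia and neutrophils they were −0.18 to 1.59 for Timp1, shSELP against shNC, microglia-like, −2.38 to 8.47 for Mmp8, shSELP against shNC, neutrophil-like and −0.25 to 1.56 for Mmp9, shSELP against shNC, neutrophil-like. In tumor cells they were −1.75 to 0.074 for Mmp14, shSELP against shNC, tumor-like and −0.45 to 1.06 for Timp2, shSELP against shNC, tumor-like. Between classes the range was −2.42 to 0.078 for Timp1, neutrophil-like against macrophage-like. Other alternatives turned Mmp8, shSELP against shNC, macrophage-like, to 0.13 with clusters, Timp2, shSELP against shNC, tumor-like, to −0.082 in thinned cells and Timp2, neutrophil-like against macrophage-like, to 0.064 in thinned cells.

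Among states the same held on leaving out a library. In Nos2/Inhba cells the ranges were −0.45 to 0.25 for Mmp2, state: Nos2/Inhba inflammatory, −0.32 to 0.55 for Mmp8, state: Nos2/Inhba inflammatory, −0.36 to 0.23 for Mmp13, state: Nos2/Inhba inflammatory, −0.011 to 0.16 for Mmp14, state: Nos2/Inhba inflammatory and −0.080 to 0.25 for Mmp19, state: Nos2/Inhba inflammatory. In monocytes and Dnase1l3 Ms4a7 cells they were −0.19 to 0.44 for Mmp19, state: Ly6c2 Ccr2 monocyte and −0.21 to 0.0064 for Mmp19, state: Dnase1l3 Ms4a7. In Gpnmb-high cells they were −0.43 to 0.85 for Mmp12, state: Gpnmb-high, −0.0011 to 0.52 for Mmp13, state: Gpnmb-high, −0.050 to 0.042 for Mmp14, state: Gpnmb-high and −0.29 to 0.12 for Mmp19, state: Gpnmb-high, and in proliferating cells −0.62 to 0.079 for Mmp19, state: proliferating and −0.077 to 0.22 for Timp2, state: proliferating. Other alternatives turned Mmp8, state: Nos2/Inhba inflammatory, to −0.10 by DESeq2 and −0.055 without the library block, Mmp13, state: Nos2/Inhba inflammatory, to 0.12 by DESeq2 and 0.026 without likely doublets, Mmp14, state: Gpnmb-high, to 0.014 with no filter and 0.035 in thinned cells, Mmp12, state: proliferating, to −0.22 in thinned cells and Timp2, state: proliferating, to −0.45 in thinned cells.

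In CD11b+ macrophages the ratio for CD11b shSELP against shNC, Mmp12, macrophage-like, moved to 0.480 in thinned cells, for CD11b shSELP against shNC, Mmp13, macrophage-like, to 0.942 in thinned cells, and for CD11b shSELP against shNC, Mmp14, macrophage-like, to 1.33 with TMM factors. For CD11b shSELP against shNC, Timp2, microglia-like, it was 1.003 in thinned cells. Under a stricter gate margin, 3 of 90 mean levels moved by 1 SD or more. Beside Mmp9 in tumor cells, which lost its 1 UMI, moves of over 1.5-fold were those of microglia in Mmp13 (7.49 to 2.68 CPM) and Mmp19 (4.62 to 2.47), of proliferating cells in Mmp12 (89.1 to 40.5), Mmp13 (82.5 to 53.7), Timp1 (10.1 to 3.73) and Timp3 (2.29 to 4.08), of Nos2/Inhba cells in Mmp2 (8.68 to 5.20) and of Dnase1l3 Ms4a7 cells in Mmp12 (41.8 to 25.0).

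Libraries with the same replicate number share a number only, and the correlation over genes between the difference of replicates 1 and 2 in shNC and that in shSELP was −0.06 in macrophages (10267 genes), 0.08 in microglia (7981), 0.22 in neutrophils (498) and −0.05 in tumor cells (9195). Depth limits the members in neutrophils, whose 186931 UMIs leave a floor of 16.0 CPM, in fibroblasts, of which shNC 2 had none and shSELP 2 had 2 cells with a floor of 198 CPM, and in other vascular cells of the shNC libraries.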
